A study of Homo sapiens with 6 samples.

Results

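The cells are MOLM-13, a human acute myeloid leukaemia line with the MLL-AF9 translocation. The transcripts described here are 10 genes taken as output of the receptor FLT3, whose activity was not measured. They are PIM1, PIM2, SOCS2, CISH, DUSP4, DUSP5, DUSP6, SPRED1, SPRED2 and SPRY2, chosen by name as target and feedback genes of the STAT5 and ERK arms below FLT3. All 10 were matched by symbol among the 39771 gene rows of the deposited table. The libraries compared were 2 of cells transduced with a lentiviral non-targeting hairpin (shNT) and 4 of cells transduced with a lentiviral hairpin against LAMP5 (shLAMP5). All cells carried MLL-AF9 and had been through puromycin selection. The comparison asks which of these transcripts differ when LAMP5 is lowered. MOLM-13 is 1 cell line, and neither the hairpin sequence nor the harvest time of each library is given in the sources used here. The labels do not say whether separate cultures stood behind the libraries. The p-values therefore describe library-to-library spread, which could be technical.

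FLT3 is a receptor tyrosine kinase of blood progenitors, and MOLM-13 is known to carry an internal tandem duplication in it that keeps the kinase active without ligand. The active receptor drives STAT5, which enters the nucleus and switches on PIM kinases and SOCS family genes, and it drives RAS and the kinases RAF, MEK and ERK. Both arms build their own brakes. SOCS2 and CISH bind phosphorylated receptors and dampen JAK-STAT signals, DUSP phosphatases strip phosphate from ERK, and SPRED and Sprouty proteins act on RAS and RAF.

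CISH is the textbook case of a gene with STAT5 elements in its promoter, so its promoter is shown as the 1 matched window of the set that holds such elements. RefSeq promoter windows (build GRCh38.p14, which is not the hg19 build named for the files) were matched for 7 of the 10 genes, as 10 windows, because SPRED2 and SPRY2 have several starts. SOCS2, DUSP4 and DUSP5 were not matched. The 250 bases before the CISH start lie at chr3:50611775-50612024 on the minus strand, and capitals mark each TTCNNNGAA element.
CISH promoter: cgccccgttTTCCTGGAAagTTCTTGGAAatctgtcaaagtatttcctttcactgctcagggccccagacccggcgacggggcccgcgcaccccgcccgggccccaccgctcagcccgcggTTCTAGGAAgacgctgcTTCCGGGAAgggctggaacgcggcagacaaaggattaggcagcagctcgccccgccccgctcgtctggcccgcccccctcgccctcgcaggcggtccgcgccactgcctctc
The window holds 4 such elements, TTCCTGGAA, TTCTTGGAA, TTCTAGGAA and TTCCGGGAA, whose first bases lie 241, 230, 129 and 112 bases before the start. The motif reads the same on both strands. Of 35116 RefSeq windows of this length, 6.57% hold at least 1 such element and 5 windows hold at least 4. The other 9 windows of these genes hold none. None of the 10 windows holds CCGGAAGT, a core of ETS factors, on either strand, a motif found in 3.42% of all windows. These are matches of letters within 250 bases and say nothing of binding.

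Values are TPM, transcript abundances scaled for length and to a fixed total, so that they can be set side by side between genes. Their sums were between 897026 and 912565 per library, and between 12192 and 12661 rows reached 1 TPM. Read depth is unknown. The library shLAMP5 2 stood apart: the unnamed row ENSG00000226958 measured 65099 TPM there and 15576 to 21957 TPM elsewhere, and its median scaling factor was 0.826, against 0.998 to 1.07. Myeloid genes marked the cells as labelled, with SPI1 between 205 and 466 TPM and CD33 between 61.7 and 141 TPM among 10 myeloid markers. The summed level of 5 T cell, 5 B cell, 6 erythroid, 5 megakaryocytic and 6 fibroblast and packaging cell markers stayed at or below 9.37, 1.80, 1.07, 1.04 and 6.75 TPM in every library, and HBA2, PF4, PPBP and COL3A1 were listed at 0 in all 6. A change in the number of cells of a kind and a change in RNA per cell cannot be told apart in such bulk samples.

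LAMP5, the targeted gene, was lower in every shLAMP5 library. It measured 170 and 282 TPM in shNT 1 and 2, and 80.6, 65.6, 68.8 and 86.7 TPM in shLAMP5 1 to 4, with a log2 fold change of -1.54 and an adjusted p of 0.252 in limma. Log2 fold changes subtract shNT from shLAMP5 after log2(TPM + 1), a scale that understates changes of low genes. FLT3 itself measured 84.8 and 135 TPM in shNT 1 and 2, and 145, 50.6, 94.0 and 143 TPM in shLAMP5 1 to 4. Its lowest and highest values were both in shLAMP5, and the 2 groups overlapped fully. Its log2 fold change was -0.10 (SE 0.43, 95% interval -1.11 to 0.90, limma adjusted p 0.963), and it changed sign to 0.22 without shLAMP5 2 and to 0.23 without shNT 2. STAT5A and STAT5B, the signal carriers, were expressed well below their receptor. STAT5A measured 6.25 and 8.86 TPM in shNT 1 and 2, and 7.79, 3.06, 8.60 and 5.001 TPM in shLAMP5 1 to 4. STAT5B measured 13.1 and 16.5 TPM in shNT 1 and 2, and 17.3, 11.5, 12.2 and 17.2 TPM in shLAMP5 1 to 4. For both genes shLAMP5 2 was lowest in TPM as deposited, and the groups overlapped. Their log2 fold changes were -0.33 (limma adjusted p 0.819) and -0.038 (limma adjusted p 0.977), the latter changing sign under 5 of 15 alternative settings. The value of STAT5A was -0.085 without shLAMP5 2, -0.11 without shNT 2, -0.50 without shLAMP5 3 and -0.55 without shNT 1.

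No gene of the set passed an adjusted p of 0.05 in limma. DUSP6, the cytoplasmic phosphatase that acts on ERK, had the largest log2 fold change of the set with a pseudocount of 1 and all 6 libraries, with 13.9 to 19.5 TPM in 3 shLAMP5 libraries against 6.67 and 6.68 TPM in shNT, and 6.92 TPM in shLAMP5 2. PIM1 and SOCS2 were the most abundant transcripts in both groups, and SOCS2 was nearly flat. In shLAMP5 3 all 10 genes lay above both shNT libraries.

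**Figure D1:**
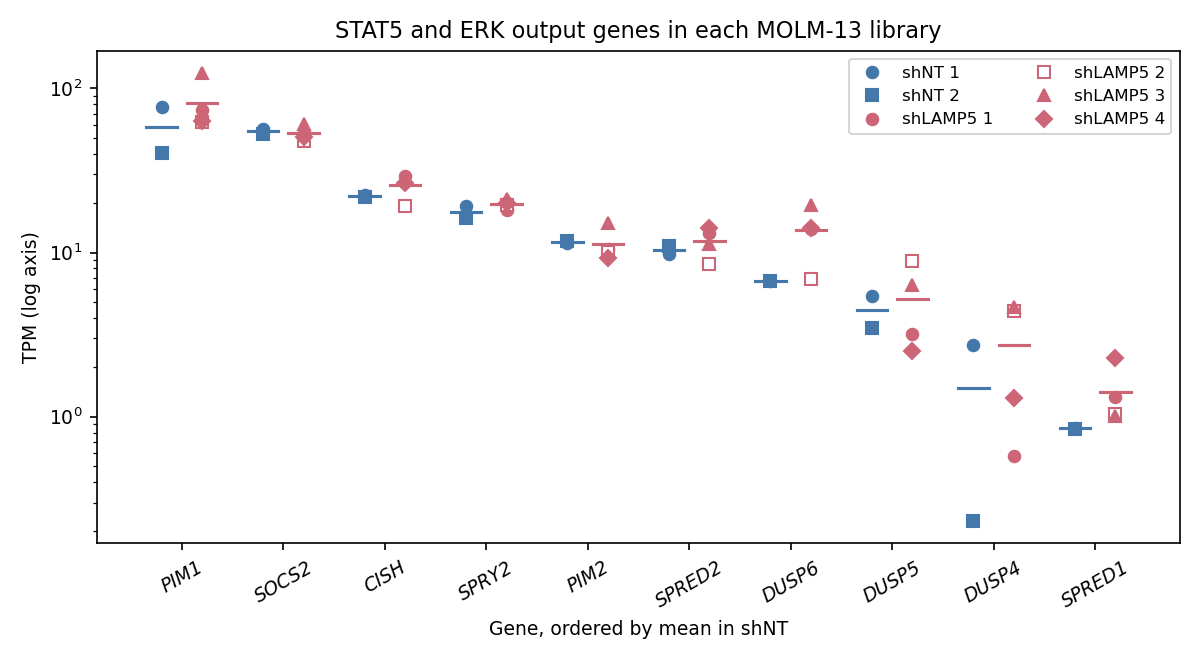
TPM of each gene (log axis) in the 2 shNT libraries (blue) and the 4 shLAMP5 libraries (red, shLAMP5 2 open), with bars at the group means and genes ordered by their shNT mean. DUSP6 and SPRED1 are the 2 genes whose 4 shLAMP5 points all lie above both shNT points, and DUSP4 spreads from 0.232 to 4.67 TPM. SPRED1 is below 1 TPM in both shNT libraries and passed the filter on low values through its shLAMP5 libraries alone.

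Among the STAT5 targets, PIM1, a serine/threonine kinase that promotes survival, measured 76.6 and 40.6 TPM in shNT 1 and 2. In shLAMP5 1 to 4 it measured 74.2, 62.0, 124 and 63.6 TPM. A single library, shLAMP5 3, lay above shNT 1, and the other 3 lay between the 2 shNT libraries. PIM1 had a log2 fold change of 0.47 (SE 0.35, 95% interval -0.35 to 1.29, limma adjusted p 0.716, exact two-sided permutation p 0.533). The shNT libraries differed 1.89-fold from each other, and the log2 fold change was 0.019 without shNT 2, 0.92 without shNT 1 and 0.25 without shLAMP5 3.

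PIM2, the related kinase that is regulated mostly at the level of its transcript, measured 11.4 and 11.7 TPM in shNT 1 and 2. It measured 10.5, 10.1, 15.1 and 9.28 TPM in shLAMP5 1 to 4. In TPM as deposited, the values of shLAMP5 1, 2 and 4 lay below both shNT libraries and that of shLAMP5 3 lay above. With median scaling, that of shLAMP5 2 lay above both as well. PIM2 had a log2 fold change of -0.056 (SE 0.23, 95% interval -0.59 to 0.47, limma adjusted p 0.962).

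SOCS2 measured 56.8 and 52.8 TPM in shNT 1 and 2, and 53.2, 47.7, 61.1 and 50.5 TPM in shLAMP5 1 to 4. The highest of the 6 values was 1.28 times the lowest, the narrowest range of the set. Its log2 fold change was -0.049 with a 95% interval of -0.48 to 0.38 (limma adjusted p 0.961). The antisense gene SOCS2-AS1 overlaps it and measured 4.18 to 6.87 TPM. The sources used here do not state whether strand was used, so reads of the pair may not be fully separated.

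CISH measured 22.3 and 21.8 TPM in shNT 1 and 2, and 29.2, 19.2, 28.4 and 26.5 TPM in shLAMP5 1 to 4. In TPM as deposited, shLAMP5 1, 3 and 4 lay above both shNT libraries and shLAMP5 2 lay below both. With median scaling, shLAMP5 2 lay above both as well. For CISH the log2 fold change came to 0.20 (SE 0.22, 95% interval -0.31 to 0.72, limma adjusted p 0.815), and 0.33 without shLAMP5 2 (limma adjusted p 0.280). MAPKAPK3, a gene that overlaps CISH, measured 39.7 TPM in shLAMP5 2 and between 53.6 and 86.4 TPM in the other libraries.

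Of the ERK phosphatases, DUSP6 measured 6.68 and 6.67 TPM in shNT 1 and 2. It measured 13.9, 6.92, 19.5 and 14.2 TPM in shLAMP5 1 to 4. The groups did not overlap, though in TPM as deposited shLAMP5 2 exceeded shNT by a small margin. With median scaling this margin was wider. The shLAMP5 mean, 13.6 ± 5.18 TPM (SD, n = 4), was 2.04 times the shNT mean. DUSP6 had a log2 fold change of 0.85 (SE 0.35, 95% interval 0.038 to 1.67). In limma its p was 0.0424, or 0.541 once adjusted by Benjamini-Hochberg, and the exact two-sided permutation p was 0.2. Across the 13072 genes tested, 3.72% were higher and 5.25% lower at an unadjusted p under 0.05, and DUSP6 was the 1 gene of the set among them. It passed the adjusted threshold when library weights were estimated from the data (log2 fold change 0.98, limma adjusted p 0.0469), a setting that gave shLAMP5 2 the lowest weight, 0.193, and called 0.887% of genes higher and 0.719% lower. Over all alternatives its adjusted p ran from 0.0469 to 1, and its log2 fold change was 1.12 without shLAMP5 2 (limma adjusted p 0.114) and 0.66 without shLAMP5 3. With median scaling DUSP6 had a log2 fold change of 0.89 (limma p 0.018, adjusted p 0.372). With any 1 of the libraries other than shLAMP5 2 left out, its unadjusted limma p lay between 0.0768 and 0.122. The annotated readthrough gene POC1B-DUSP6 overlaps DUSP6 and was not matched in the table.

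DUSP4 and DUSP5, nuclear phosphatases that are induced by ERK, followed another order of libraries. DUSP4 measured 2.75 and 0.232 TPM in shNT 1 and 2, and 0.580, 4.39, 4.67 and 1.30 TPM in shLAMP5 1 to 4. It was high in shNT 1, shLAMP5 2 and shLAMP5 3 and low in the other 3, so that the groups overlapped. The shNT libraries differed 11.8-fold, and its log2 fold change of 0.60 (SE 0.63, limma adjusted p 0.810) became -0.21 without shNT 2 and 1.40 without shNT 1. With a pseudocount of 0.1 it was 1.13, above the 0.93 of DUSP6 at that setting.

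DUSP5 measured 5.47 and 3.48 TPM in shNT 1 and 2, and 3.20, 8.84, 6.34 and 2.50 TPM in shLAMP5 1 to 4. Its 3 highest libraries were the same as those of DUSP4. This order was not particular to them: SOCS1, DUSP10 and JUNB, named after their values were seen, were highest in the same libraries. The log2 fold change was 0.084 (SE 0.43, limma adjusted p 0.971), and it was -0.18 without shLAMP5 2, -0.18 without shNT 2 and -0.037 without shLAMP5 3. The summed fibroblast and packaging cell markers, of which COL3A1 was at 0, were also highest in these 3 libraries. The sums were 3.62, 6.75 and 4.60 TPM in shNT 1, shLAMP5 2 and shLAMP5 3, against 1.08 to 1.77 TPM. COL1A1 alone made up 2.75, 5.91 and 3.54 TPM of them. PDGFRB and DCN did not share this order, with 0.255 and 0 TPM in shLAMP5 2 against 0.494 and 0.147 TPM in shLAMP5 1. COL1A2 and THY1 were highest in shLAMP5 2, at 0.452 and 0.134 TPM. The part of these markers in the result was not tested.

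Among the RAS and RAF inhibitors, SPRED1, which recruits neurofibromin to RAS, was the lowest transcript of the set. It measured 0.852 and 0.843 TPM in shNT 1 and 2, and 1.31, 1.05, 1.01 and 2.28 TPM in shLAMP5 1 to 4. Every shLAMP5 value exceeded both shNT values. SPRED1 passed the filter on low values, at least 1 TPM in at least 2 libraries, through its shLAMP5 libraries alone, so its place among the genes tested is no support for the direction. Its log2 fold change was 0.35 (SE 0.28, 95% interval -0.29 to 1.00, limma adjusted p 0.729), and 0.20 without shLAMP5 4 or 0.60 with a pseudocount of 0.1.

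SPRED2, its relative, measured 9.80 and 11.03 TPM in shNT 1 and 2, and 13.2, 8.51, 11.3 and 14.1 TPM in shLAMP5 1 to 4. As for CISH, the libraries shLAMP5 1, 3 and 4 lay above both shNT libraries and shLAMP5 2 below both. With median scaling, shLAMP5 2 lay between the shNT libraries. SPRED2 had a log2 fold change of 0.14 (SE 0.23, 95% interval -0.40 to 0.68, limma adjusted p 0.888). It ran from 0.055 without shLAMP5 4 to 0.28 without shLAMP5 2, with 0.064 without shNT 1, 0.084 without shLAMP5 1 and 0.22 without shNT 2.

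SPRY2, a Sprouty protein that ERK signalling induces, measured 19.1 and 16.2 TPM in shNT 1 and 2. It measured 18.2, 19.5, 21.0 and 20.02 TPM in shLAMP5 1 to 4. Of these, shLAMP5 2, 3 and 4 lay above both shNT libraries, and shLAMP5 1 lay between them. SPRY2 had a log2 fold change of 0.15 (SE 0.18, 95% interval -0.27 to 0.58, limma adjusted p 0.833), with 0.040 without shNT 2 and 0.27 without shNT 1.

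**Figure D2:**
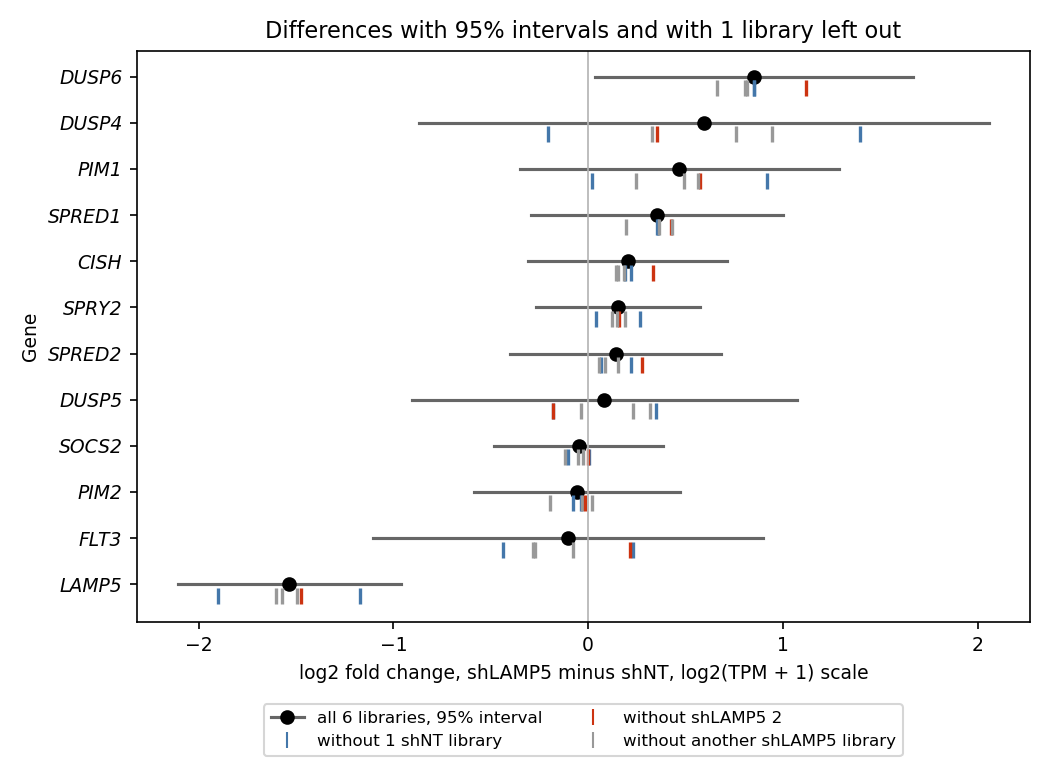
Log2 fold change of each gene (dot) with its 95% interval (line) from all 6 libraries, and the value with 1 library left out (ticks: blue without an shNT library, red without shLAMP5 2, grey without another shLAMP5 library). The interval of DUSP6 (0.038 to 1.67) is the 1 interval of the 10 genes that does not reach 0, and the ticks of DUSP4 run from -0.21 to 1.40.

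Over the set, 8 of 10 genes had positive log2 fold changes and 2 had negative ones, with a median of 0.18 against -0.0060 over all 13072 genes tested. Of all genes tested, 6439 were positive and 6633 negative. The count of positive genes in the set was 6 without shNT 2 and 9 without shNT 1. The 4 shLAMP5 values all exceeded both shNT values for 2 of 10 genes, DUSP6 and SPRED1, and were all below them for 0. Over all genes tested these shares were 8.25% and 13.5%. SPRED1 passed the filter on low values through its shLAMP5 libraries alone, so its place in this count is no support. At a minimum of 5 TPM the count above was 1 of 8 genes, and with median scaling it was 3 of 10, with CISH added. No gene of the set (limma smallest adjusted p 0.541) and 0% of all genes passed the adjusted threshold in either direction, with 1 gene of the set and 1172 of all genes under an unadjusted p of 0.05. The latter count was 499 without shNT 1, 408 without shNT 2 and 2248 without shLAMP5 2. For 6 of the 10 genes the gap between the 2 shNT libraries on the log2(TPM + 1) scale was larger than the difference between groups. This count was not taken over all genes tested, so it cannot be called particular to the set. The median of the set was 0.029 without shNT 2, 0.31 without shNT 1 and 0.305 without shLAMP5 2.

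The libraries of the shLAMP5 group differed in how they placed these genes. In shLAMP5 3 all 10 lay above both shNT libraries, where 42.8% of all genes tested did. In shLAMP5 2, 5 lay above (DUSP4, DUSP5, DUSP6, SPRED1 and SPRY2) and 4 below both shNT libraries, against 26.8% and 57.2% of all genes. With median scaling these counts in shLAMP5 2 became 8 above and 0 below (44.9% and 37.8% of all genes under that scaling), and in shLAMP5 3 they were again 10 and 0 (42% and 38.5%). In shLAMP5 1, 4 lay above and 2 below (40.8% and 29.7% of all genes), and in shLAMP5 4, 5 lay above and 3 below (40.3% and 32.4%). The 10 myeloid markers differed between these libraries as well: averaged as log2(TPM + 1), they stood at 6.04 (shNT 1), 6.12 (shNT 2), 6.64 (shLAMP5 1), 6.05 (shLAMP5 2), 7.22 (shLAMP5 3) and 6.86 (shLAMP5 4), highest in shLAMP5 3. Of them 9 had positive log2 fold changes, with a median of 0.77, CD68 at 1.17 and CSF3R at 1.09, and MPO had -0.80. In all 4 shLAMP5 libraries 4 of the 10 markers lay above both shNT libraries, as 8.25% of all genes tested did. Their summed level was 2629 and 6685 TPM in the shNT group and 2184 to 10641 TPM in the shLAMP5 group, and none was listed at 0 in any library. Their part in the values of the output genes was not tested. Of the 10 output genes, 6 had their highest value in shLAMP5 3 and 5 their lowest in shNT 2. Neither count was taken over all genes tested, so neither can be read as a trait of these genes.

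**Figure D3:**
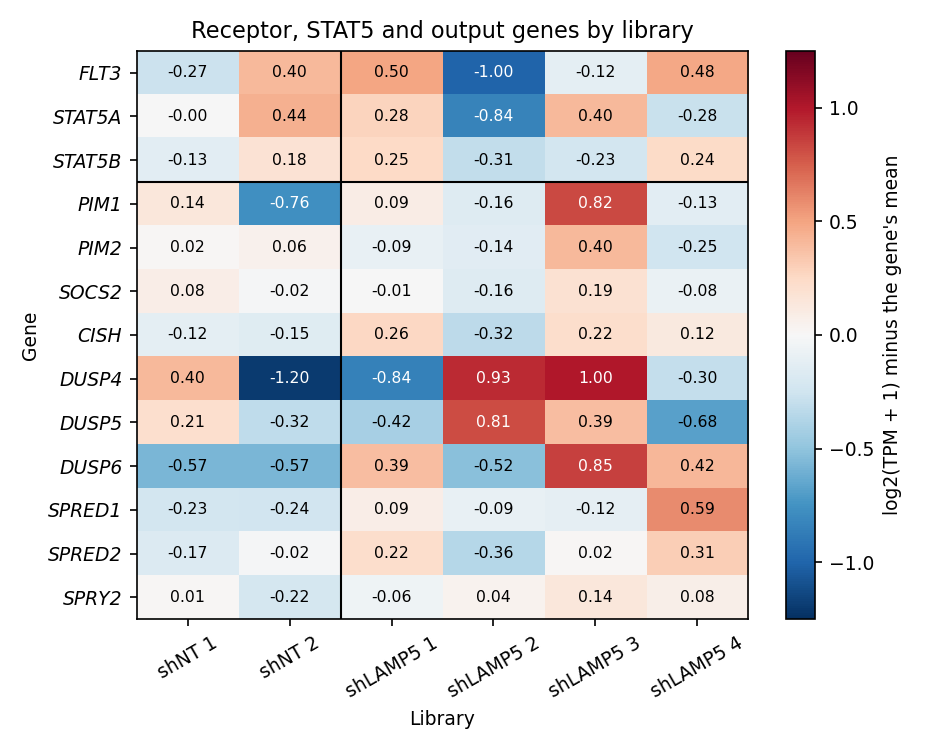
Each cell gives log2(TPM + 1) of a gene in a library minus the gene's mean over the 6 libraries, for FLT3, STAT5A and STAT5B (top) and the 10 output genes (bottom), shNT left and shLAMP5 right. FLT3 is lowest in shLAMP5 2 (-0.998), where DUSP4 (0.93) and DUSP5 (0.81) are high and PIM1 (-0.16), SOCS2 (-0.16) and CISH (-0.32) are below their means. The values are TPM as deposited, without median scaling of the libraries.

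The output genes followed the order of FLT3 over the libraries to different degrees. FLT3 was highest in shLAMP5 1 and shLAMP5 4, where CISH, DUSP6, SPRED1 and SPRED2 were above their own means and PIM2, SOCS2, DUSP4 and DUSP5 were below theirs. FLT3 was also above its mean in shNT 2, at 135 TPM. There CISH, DUSP6, SPRED1 and SPRED2 were below their means, and PIM2 alone of the output genes was above its mean. In TPM as deposited, FLT3 was lowest in shLAMP5 2, where SOCS2, CISH and SPRED2 were lowest as well and DUSP5 was at its highest. With median scaling, 0 of the 10 output genes lay below both shNT libraries in shLAMP5 2. SOCS2, CISH and SPRED2 were then not lowest there. In shLAMP5 3, where all 10 output genes lay above both shNT libraries, FLT3 at 94.0 TPM lay between the shNT libraries.

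By level, the set spanned from PIM1 at 58.6 ± 25.4 TPM in shNT (SD, n = 2) down to SPRED1 at 0.848 TPM. After PIM1 came SOCS2 (54.8 TPM), CISH (22.0 TPM), SPRY2 (17.6 TPM), PIM2 (11.5 TPM), SPRED2 (10.4 TPM), DUSP6 (6.67 TPM), DUSP5 (4.48 TPM) and DUSP4 (1.49 TPM). Within shNT, PIM1 and SOCS2 overlapped, as did DUSP4 and SPRED1. Over all 6 libraries, neighbours in this order separated without overlap at 2 places, between SOCS2 and CISH and between SPRY2 and PIM2. In shLAMP5 the mean of DUSP6 (13.6 TPM) moved it from the seventh to the fifth place, above SPRED2 (11.8 TPM) and PIM2 (11.3 TPM), whose ranges it overlapped.

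The genes whose pattern over the 6 libraries was most like that of a given gene were ranked by the root mean square difference of log2(TPM + 1) profiles, each centred on its own mean, among genes of at least median level. The 6 libraries are those of the comparison, so this likeness is a description. For DUSP6 the nearest were CTSZ, a lysosomal cysteine protease (0.060), CD300LF, an inhibitory myeloid receptor (0.088), and S100A4, a calcium-binding protein (0.10), out of 6536 candidates. CTSZ measured 130 and 137 TPM in shNT 1 and 2, and 253, 144, 330 and 257 TPM in shLAMP5 1 to 4. In TPM as deposited, CTSZ was thus likewise near the shNT level in shLAMP5 2. For PIM1 they were CCR1, a chemokine receptor (0.12), PHACTR1, an actin regulator (0.12), and NKG7, a granule protein (0.14). For SOCS2, which varied little, they were ZCCHC9 (0.032), CDKN2AIP (0.035) and TMED1 (0.037).

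The rest of the pathway was read from lists named for their roles, and no gene of any of them passed the adjusted threshold in limma in either direction. Of 18 genes of the receptor and JAK-STAT5 relay, 16 were tested, with 11 positive and a median log2 fold change of 0.20, or 0.31 without shLAMP5 2. The Src family kinase LYN had a log2 fold change of 0.44, with the smallest p among positive genes, and the phosphatase PTPN1 (-0.30) and STAT5A had the smallest among negative ones. FLT3LG, the ligand of FLT3, stayed at or below 0.542 TPM and was not tested.

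Among 15 tested of 16 other STAT5 target genes, 10 were positive and the median was 0.11, or 0.027 without shLAMP5 3, 0.19 without shLAMP5 1 and 0.21 without shLAMP5 4. CDKN1A, the cell cycle inhibitor p21, measured 302 and 345 TPM in shNT 1 and 2, and 440, 425, 986 and 377 TPM in shLAMP5 1 to 4, above both shNT libraries in each (log2 fold change 0.67, or 0.36 without shLAMP5 3, limma adjusted p 0.620). It was 1 of the 15 genes tested to lie above in all 4, against 8.25% of all genes tested. IL2RG, the common cytokine receptor chain, had 0.66, which became 0.10 without shNT 2 and 1.21 without shNT 1. MYC had -0.43, or -0.27 without either shNT 2 or shLAMP5 2. CCND2, a G1 cyclin, had -0.13, or 0.0033 without shNT 1 and -0.27 without shNT 2.

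Among 26 tested of 27 genes of the RAS-ERK cascade, 18 were positive and the median was 0.12, or 0.043 without shNT 2 and 0.051 without shLAMP5 3. In all 4 shLAMP5 libraries, 3 genes lay above both shNT libraries (RASAL3, SOS2 and the scaffold KSR1, named after its values were seen) and 2 of the 26 below (HRAS and LZTR1), against 8.25% and 13.5% of all genes tested. RASAL3, a RAS GTPase-activating protein, measured 0.55 as its log2 fold change, and SOS2, an exchange factor that loads RAS with GTP, 0.46, with its lowest shLAMP5 value, 7.67 TPM, in shLAMP5 2. HRAS measured 42.5 and 34.4 TPM in shNT 1 and 2, and 26.5, 32.1, 26.9 and 29.0 TPM in shLAMP5 1 to 4, below both shNT libraries in each (log2 fold change -0.41, limma adjusted p 0.578). LZTR1, an adaptor for RAS degradation, had -0.22.

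Among 16 tested of 24 other ERK target and feedback genes, 8 were positive and 8 negative, with a median of -0.035, which was -0.32 without shLAMP5 2 and 0.099 without shLAMP5 1. The ETS factors ELK3 and ETV5 had log2 fold changes of 0.31 and 0.19. ELK3 had 0.090 without shNT 2, 0.14 without shLAMP5 3 and 0.54 without shNT 1, and ETV5 had 0.12 without shLAMP5 3. FOSL1, an AP-1 subunit that ERK stabilises, measured 22.0 and 18.4 TPM in shNT 1 and 2, and 14.4, 13.1, 14.0 and 16.0 TPM in shLAMP5 1 to 4. All 4 lay below both shNT libraries (log2 fold change -0.46, limma p 0.0389, adjusted p 0.541), opposite in sign to DUSP6. ETV4, an ETS factor induced by ERK, lay below both shNT libraries in all 4 as well (-0.72, limma adjusted p 0.617), with 3.48 TPM in shLAMP5 3 and a log2 fold change of -0.41 without it. These were 2 of the 16 genes tested, near the share of 13.5% of all genes tested that lay below in all 4. On the other side, 0 of the 16 lay above, against 8.25% of all genes. IER3 was listed at 0 in every library.

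Of 10 other SOCS and DUSP genes, 8 were in the table and 6 were tested, with a median of 0.28, or 0.16 without shLAMP5 3 and 0.45 without shNT 1. DUSP16, a phosphatase of JNK and p38, measured 2.30 and 1.96 TPM in shNT 1 and 2, and 5.66, 3.40, 5.28 and 5.67 TPM in shLAMP5 1 to 4. Its log2 fold change was 0.92 (SE 0.24, limma adjusted p 0.491), and with library weights it passed (1.07, limma adjusted p 0.0317). DUSP22 also lay above both shNT libraries in all 4 (0.64, limma adjusted p 0.520), and SOCS4 had -0.22, or 0.096 without shNT 1. DUSP16 and DUSP22 were the 2 of the 6 genes tested that lay above in all 4, against 8.25% of all genes tested.

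**Figure D4:**
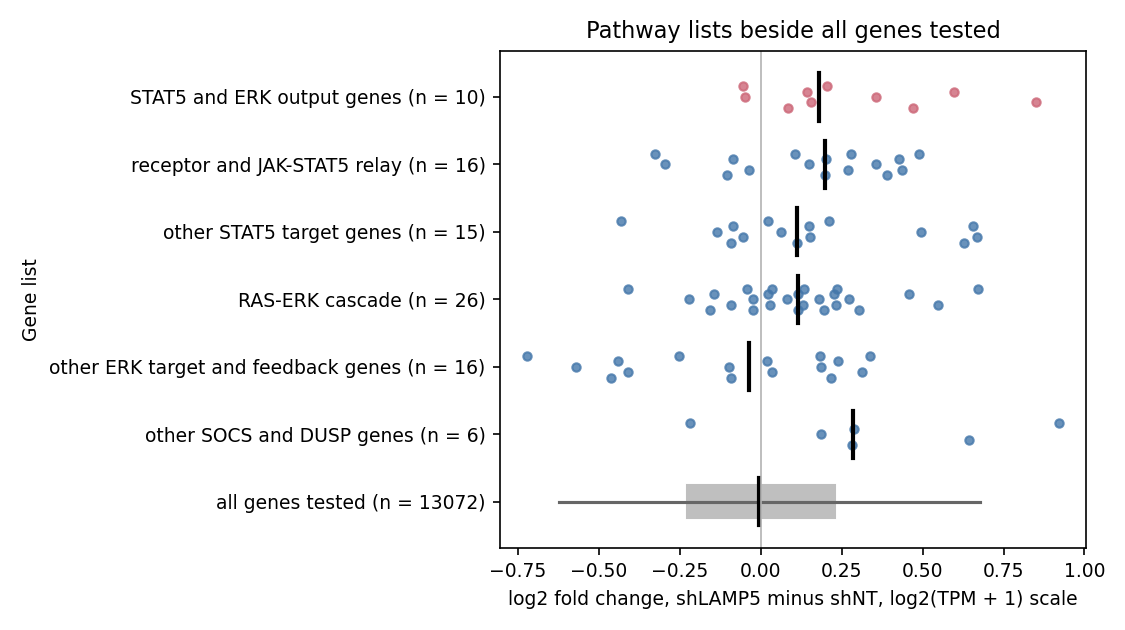
Log2 fold changes of the tested genes of each list (points) with the list's median (black bar), beside all 13072 genes tested (grey box from the 25th to the 75th percentile, line from the 5th to the 95th, bar at the median). The medians run from -0.035 for other ERK target and feedback genes to 0.28 for other SOCS and DUSP genes, and that of the 10 output genes is 0.18.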

How the data were processed

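RNA of 6 MOLM-13 libraries was sequenced. The authors deposited 1 table of gene values, read as TPM because they are fractional with like sums per library. Its header gives no unit. The submitters' processing notes name kallisto and hg19. The sources used here do not give the kallisto version, transcript set, gene summary or filters. Read depth is therefore unknown and no count test was run. Groups came from the titles, and symbols from a table of gene names.

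The fit was limma 3.58.1 (R 4.3.3) on log2(TPM + 1) with a mean-variance trend, over genes that reached 1 TPM in 2 or more libraries, with Benjamini-Hochberg adjustment over all genes tested at 0.05, and was checked on simulated data. The exact permutation test of a single gene has 15 arrangements of 6 libraries, and its smallest p is 0.0667. Figures used Python 3.11.15 and matplotlib 3.10.9. Alternatives were another pseudocount, other filters and scalings, no trend, library weights, leaving out libraries, and the replicate number as a block.

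The genes and lists were chosen with earlier results of these data known. Named are the 10 genes, FLT3, LAMP5, STAT5A, STAT5B, the 2 genes of smallest p per direction in each list, and the 3 of most like pattern for PIM1, SOCS2 and DUSP6. Not every gene so named is reported here. Genes named as markers, as overlapping genes or as listed at 0 were added for context.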

Additional observations from a re-analysis of the deposited data

Results flagged for a closer look

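Among the 32 named genes, the 4 shLAMP5 libraries held a value far from the other 3, by Dixon's test at the 95% level, for 3 genes, where chance gives about 1 in 20. CDKN1A measured 986 TPM in shLAMP5 3, against a next value of 440 TPM. ETV4 measured 3.48 TPM in shLAMP5 3, against a next value of 9.51 TPM. SOS2 measured 7.67 TPM in shLAMP5 2, against a next value of 10.1 TPM. None of the 10 output genes was among them.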

How the results depend on the processing

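Over 15 alternative settings, the count of genes called changed from 0 to 14 with no filter on low values, 210 with library weights and 16 with the replicate block, and the count of the 10 output genes called from 0 to 1, DUSP6, with library weights. Under library weights, log2 fold changes were 0.98 for DUSP6 and -1.40 for LAMP5, both then past the threshold, and signs changed for DUSP5 (-0.40), FLT3 (0.31) and STAT5B (0.15). STAT5B changed sign with median scaling (0.0056) and ELK3 with the replicate block (-0.045). Without shNT 1 and shLAMP5 2 together, a setting added after the data were seen, signs changed for SOCS2 (0.051), CCND2 (0.11) and SOCS4 (0.14).

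With 1 library left out at a time, the ranges were -0.20 to 0.020 for PIM2, -0.12 to 0.0026 for SOCS2, -0.21 to 1.40 for DUSP4, -0.18 to 0.35 for DUSP5, -0.44 to 0.23 for FLT3, -0.19 to 0.12 for STAT5B, -0.27 to 0.0033 for CCND2 and -0.54 to 0.096 for SOCS4. PIM1, CISH, DUSP6, SPRED1, SPRED2 and SPRY2 kept a positive sign under every setting that gave a value. The cause of each change was not tested. At a minimum of 5 TPM, 8 of the 10 genes were tested, without DUSP4 and SPRED1.

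The replicate numbers mark nothing stated in the labels, and libraries of like number did not deviate together (correlations of -0.52 and -0.47 across genes for numbers 1 and 2). Those of unlike number gave 0.47 (shNT 1 with shLAMP5 2) and 0.52 (shNT 2 with shLAMP5 1), mirror values, since there are 2 shNT libraries. The replicate block left 1 residual degree of freedom and called 7 genes higher and 9 lower, none of the 10. Under it DUSP6 had 0.50, and list medians were -0.0019 for the RAS-ERK cascade, 0.024 for the receptor and JAK-STAT5 relay and 0.0055 for other STAT5 targets. The number of libraries limits what could be detected.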
